A study of Mus musculus with 8 samples.

Results

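Transcripts of 44 lysosomal genes were measured in cells of renin lineage (CoRL) sorted from the kidneys of uninjured mice and of mice with experimental focal segmental glomerulosclerosis (FSGS). The genes were listed by their known function as hydrolases, lipid cofactors or membrane proteins of the lysosome. Of 45 listed genes, 44 had at least 1 probe carrying their symbol on the array, out of 16593 named genes in all. Npc1 had no named probe and was not analysed here. The 44 genes were read by 69 probes, the probes of a gene were averaged, and each gene was placed in 1 of 5 groups by its role: 12 cathepsins and other peptidases, 16 glycosidases and sulfatases, 6 lipid enzymes and lipid cofactors, 8 membrane proteins, and 2 further genes, Grn and Tfeb.

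All 8 mice were Ren1cCre×Rs-ZsGreen-R reporter animals, in which Cre made under the renin promoter switches on ZsGreen for good, so that the sorted cells include any cell that once expressed renin as well as those that still did. In the 4 day 5 FSGS mice, sheep antibody against glomeruli had been injected into the peritoneum in 2 doses of 12 mg per 20 g of body weight given 24 h apart, which depletes podocytes, and the cells were taken 5 days after the last dose. The 4 uninjured mice were matched for age, carried the same alleles and received no antibody. RNA from each sort was amplified and hybridized to its own array, of the Illumina MouseRef-8 v2.0 type, which reads 1 colour from short probes on beads.

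Levels are given on the log2 scale after background correction and quantile normalization, so that a difference of 1 is a 2-fold change. A probe was called detected where its detection p-value, which sets it against the negative control beads of the same array, was under 0.01. The number of detected probes ran from 5793 in uninjured replicate 1 to 12052 in uninjured replicate 4, and from 11153 to 11700 in the day 5 FSGS mice. Levels of different probes cannot be set against each other. Comparisons are therefore between arrays, for the same gene, the same probes or the mean of the same list of genes. A gene was called where the adjusted p of limma, over all 16593 genes, was at most 0.01.

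The cell type label was set against marker genes. Ren1 and Akr1b7, the defining transcripts of renin cells, had no named probe, and none of the 4 other renin cell markers that were measured was detected on all 8 arrays. The mean log2 level of 17 proximal tubule markers was 10.02 to 10.28 in uninjured mice and 7.58 to 9.56 on day 5, and that of 17 macrophage and monocyte markers was 6.60 to 7.05 in uninjured mice and 8.29 to 9.90 on day 5. Of the macrophage markers 11 were called higher and 0 lower, led by Cx3cr1, a chemokine receptor (log2 change 3.32), Mrc1, the mannose receptor (3.18), and C1qc, a chain of complement C1q (3.13), and 1 of the 17 was detected on no array. Transcripts known from other cell types were thus measured in the sorted samples, and in such bulk samples fewer cells of a type and less RNA per cell cannot be told apart.

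Lysosomes are acidic organelles in which proteins, glycans, lipids and nucleic acids are taken apart. Soluble hydrolases are made as precursors and most are carried there by mannose 6-phosphate receptors, while heavily glycosylated proteins such as LAMP1 and LAMP2 line the membrane. Many lysosomal genes carry an E-box in their promoter, and the transcription factor TFEB binds an extended form of it, known as the CLEAR element, to raise them as a set. Macrophages are rich in lysosomes, and proximal tubule cells use them to digest the protein they take up from the filtrate. In macrophages the factor PU.1 binds purine-rich PU boxes in the promoters of many genes.

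The promoters that carry these letters are shown first, since the members were later compared by them. Sequences are from RefSeq (GRCm38.p6), 5′ to 3′ on the strand of the gene. In the first 4, capitals mark the E-box CACGTG, or TCACGTGA where the longer CLEAR form is present.
Lamp1: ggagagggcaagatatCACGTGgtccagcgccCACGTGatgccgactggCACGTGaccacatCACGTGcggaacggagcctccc
Ctsa: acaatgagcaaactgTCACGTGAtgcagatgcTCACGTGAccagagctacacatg
Mcoln1: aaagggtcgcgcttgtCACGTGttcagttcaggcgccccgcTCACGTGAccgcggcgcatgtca
Cln3: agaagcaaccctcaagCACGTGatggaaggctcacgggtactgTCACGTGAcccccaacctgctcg
These windows lie at chr8:13159084-13159167 (Lamp1, plus strand), chr2:164833745-164833799 (Ctsa, plus strand), chr8:3500432-3500495 (Mcoln1, plus strand) and chr7:126583336-126583401 (Cln3, minus strand).

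In the next 5, from genes that were called, capitals mark the PU box core GAGGAA or its reverse complement TTCCTC, or the longer PU box GAGGAAGT or its reverse complement ACTTCCTC.
Ctss: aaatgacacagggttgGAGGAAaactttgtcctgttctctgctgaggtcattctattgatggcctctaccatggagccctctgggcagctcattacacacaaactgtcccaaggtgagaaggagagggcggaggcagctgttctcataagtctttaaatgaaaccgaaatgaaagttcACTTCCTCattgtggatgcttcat
Ctsc: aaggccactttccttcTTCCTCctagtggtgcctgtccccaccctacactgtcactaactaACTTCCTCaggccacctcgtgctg
Grn: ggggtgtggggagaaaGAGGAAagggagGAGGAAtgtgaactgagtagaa
Gm2a: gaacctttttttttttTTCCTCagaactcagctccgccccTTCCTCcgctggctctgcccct
Smpd1: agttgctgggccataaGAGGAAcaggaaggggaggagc
They lie at chr3:95526606-95526807 (Ctss), chr7:88277873-88277957 (Ctsc), chr11:102430315-102430364 (Grn), chr11:55097910-55097971 (Gm2a) and chr7:105554348-105554385 (Smpd1), all on the plus strand.

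On day 5 of FSGS, 6 lysosomal genes were called higher, Ctsc, Ctss, Scarb2, Hexa, Grn and Gm2a, and 2 were called lower, Cd63 and Smpd1, while 36 were not called. The 6 make up 13.6% of the 44 genes, beside 1.88% of all genes called higher, and the 2 make up 4.55%, beside 0.380% of all genes called lower. The mean was higher on day 5 for 29 of the 44 and lower for 15, with a median log2 change of 0.30, beside -0.03 over all genes. With a larger offset of 50 in the background correction, Hexa, Gm2a, Smpd1 and Cd63 stayed called, while Ctsc, Ctss, Scarb2 and Grn had adjusted p-values of 0.0117 to 0.0148. All 4 day 5 arrays lay above all 4 uninjured arrays for 16 genes (36.4%, beside 10.4% of all genes) and below them for 9 (20.5%, beside 9.60% of all genes). Most of the 44 are well expressed, with 37 detected on all 8 arrays, whereas 4097 of all 16593 genes were. A refit on probes detected on every array of either group called 11 of 39 members higher, beside 11.3% of 6964 genes, and 2 lower, beside 3.10%. Since 10 of the members' probes entered it only through the day 5 arrays and 1 only through the uninjured ones, these counts are a description and support nothing.

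**Figure D1:**
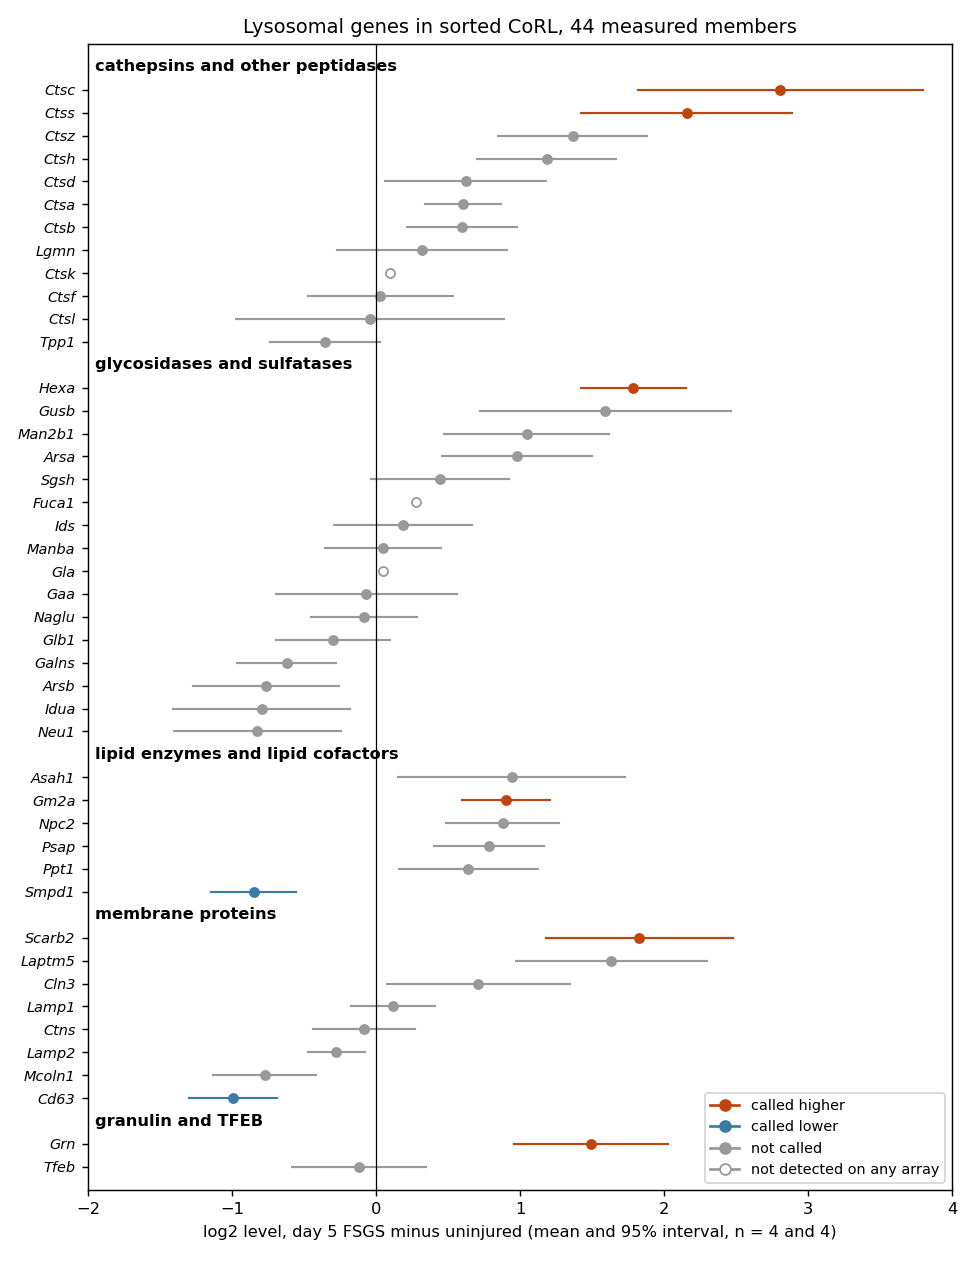
Log2 change of each lysosomal gene from uninjured to day 5 FSGS (horizontal axis; points are differences of the means of 4 and 4 mice, lines the 95% intervals of limma), ordered within the role groups. The 6 genes called higher range from 0.90 (Gm2a) to 2.81 (Ctsc) and the 2 called lower are Smpd1 (-0.85) and Cd63 (-0.995); open points are Ctsk, Gla and Fuca1, which were detected on no array.

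The cathepsins, the proteases of the lysosome, held the 2 largest increases of the 44 genes. Of the 12 peptidases, 10 had a higher mean on day 5 and 2 a lower one, 2 were called higher and 0 lower, and the median log2 change was 0.60. Ctsc encodes cathepsin C, a dipeptidyl peptidase that activates serine proteases of immune cells. Its log2 level was 6.73, 6.75, 7.06 and 7.12 in the uninjured mice and 9.86, 10.14, 8.32 and 10.58 in the day 5 FSGS mice, each in the order of replicates 1 to 4, as in all that follows. The groups did not overlap, with day 5 FSGS replicate 3 the lowest of its group by a wide margin. Ctsc rose 6.995-fold (log2 change 2.81 ± 0.43 SE, limma adjusted p = 0.00838, n = 4 and 4), and all 3 of its probes rose, by 2.53 to 3.02. Ctss encodes cathepsin S, which processes the invariant chain of MHC class II in antigen presenting cells. Its level was 9.84, 9.10, 9.85 and 10.23 in uninjured mice and 11.93, 12.10, 11.14 and 12.47 on day 5. The groups were again apart, and Ctss rose 4.45-fold (log2 change 2.16 ± 0.32 SE, limma adjusted p = 0.00766). Both calls were lost on leaving out any array other than day 5 FSGS replicate 3, with adjusted p-values of at most 0.0337 for Ctsc and 0.0311 for Ctss, and without day 5 FSGS replicate 3 they were 0.000154 and 0.00107. Leaving out any single array other than that replicate also cut the calls higher over all genes, from 312 to between 0 and 35. In the authors' processed table the change of Ctsc was smaller and not called (1.83, adjusted p = 0.0121).

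Ctsz and Ctsh, a carboxypeptidase and an aminopeptidase of the cathepsin family, had day 5 levels above every uninjured level without passing the threshold. Ctsz was at 8.90 to 9.15 in uninjured mice and at 10.57, 10.68, 9.69 and 10.73 on day 5 (log2 change 1.36 ± 0.23 SE, adjusted p = 0.0104). Ctsh was at 9.33 to 9.603 in uninjured mice and at 10.81, 10.92, 10.02 and 10.95 on day 5 (1.18 ± 0.21 SE, adjusted p = 0.0128). Ctsz passed the threshold under several other settings, among them no background correction (adjusted p = 0.00855), the authors' processed table (0.00982), its brightest probe (0.00602) and the methods' Bayesian test (0.00160). Cathepsin B (Ctsb), a cysteine protease, differed by 0.60 (adjusted p = 0.0480), cathepsin D (Ctsd), the main aspartic protease, by 0.62 (adjusted p = 0.126), and cathepsin A (Ctsa), which also protects β-galactosidase and neuraminidase in a complex, by 0.60 (adjusted p = 0.0162). Their day 5 arrays overlapped the uninjured ones for Ctsb and Ctsd, through day 5 FSGS replicate 3, and not for Ctsa. Without day 5 FSGS replicate 3, the adjusted p was 0.000175 for Ctsz, 0.000323 for Ctsh, 0.00249 for Ctsb and 0.00947 for Ctsa, and all 4 passed the threshold. Calls higher over all 16593 genes also rose without that array, from 312 to 1195. It was the lowest of its group in Ctsz, Ctsh and Ctsb, so these passes are a description. Ctsa was read by 4 probes, of which 1 was not detected on any array and showed no shift (-0.02). Its change was 0.93 with its brightest probe (adjusted p = 0.0423) and 0.23 in the authors' processed table. With detected probes only it was 0.97. Of these, 1 probe was detected on 0 of 4 uninjured and 4 of 4 day 5 arrays, so that value is a description and supports nothing.

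Tpp1, tripeptidyl peptidase, had the most negative change of the peptidases. It was at 8.03, 8.79, 8.11 and 8.29 in uninjured mice and at 7.94, 8.01, 8.01 and 7.83 on day 5 (-0.36 ± 0.17 SE, adjusted p = 0.190). The groups did not overlap, but the gap between them was small beside the spread of the uninjured mice (SD 0.34). Ctsf, Ctsl and Lgmn, the asparaginyl endopeptidase legumain, overlapped between the groups, and Ctsk, best known from osteoclasts, was detected on no array.

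The glycosidases and sulfatases, which strip sugars and sulfate from glycoproteins, glycolipids and glycosaminoglycans, did not move as a block. Of 16 genes, 9 had a higher mean on day 5 and 7 a lower one, and the median log2 change was 0.05. Only Hexa was called. It encodes the α subunit of β-hexosaminidase, which removes the terminal sugar of GM2 ganglioside. Its level was 10.02, 9.97, 10.14 and 9.88 in uninjured mice and 11.73, 12.02, 11.37 and 12.04 on day 5. Within each group the mice were close together (SD 0.11 and 0.31), and the gap between the groups was wider than either. Hexa rose 3.45-fold (log2 change 1.79 ± 0.16 SE, limma adjusted p = 0.00210), the lowest adjusted p of the 44 genes. Its call was lost without uninjured replicate 2, day 5 FSGS replicate 1 or day 5 FSGS replicate 2, with an adjusted p of at most 0.0119, and was kept on leaving out any of the 5 other arrays.

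A further 3 genes of this group had day 5 levels above every uninjured level and were not called. Gusb, β-glucuronidase, was at 6.47 to 6.88 in uninjured mice and at 8.34, 8.83, 7.10 and 9.002 on day 5 (log2 change 1.59 ± 0.38 SE, adjusted p = 0.0299). Man2b1, the lysosomal α-mannosidase, was at 9.01 to 9.23 and then at 10.21, 10.43, 9.32 and 10.53 (1.05 ± 0.25 SE, adjusted p = 0.0298). Arsa, the sulfatase that acts on sulfatide, was at 7.24 to 7.78 and then at 8.24, 8.77, 7.83 and 8.73 (0.98 ± 0.23 SE, adjusted p = 0.0280). In all 3, day 5 FSGS replicate 3 lay closest to the uninjured mice, and without it all 3 passed the threshold (adjusted p = 0.000569, 0.000490 and 0.00429). This is a description, as calls higher over all 16593 genes also rose without that array, from 312 to 1195. Fuca1 was also higher on every day 5 array, but was detected on none of the 8, so no fold is given.

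The same group held 4 genes whose day 5 levels all lay below the uninjured ones. Neu1, the lysosomal sialidase, was at 10.26, 10.57, 10.61 and 10.45 in uninjured mice and at 9.88, 9.52, 10.24 and 8.95 on day 5 (-0.82 ± 0.25 SE, adjusted p = 0.0642). Idua, α-L-iduronidase, was at 7.18, 7.57, 7.46 and 7.31 and then at 7.10, 6.49, 6.95 and 5.80 (-0.79 ± 0.27 SE, adjusted p = 0.0854). Arsb, the sulfatase of dermatan sulfate, differed by -0.77 (adjusted p = 0.0538), and Galns, a sulfatase of keratan sulfate, by -0.62 (adjusted p = 0.0309). None of these 4 passed the threshold. In all 4 the lowest array was day 5 FSGS replicate 4, the array on which the proximal tubule markers were also lowest. Other members wholly below the uninjured arrays varied in this. Tpp1 (7.83) and Cd63 (9.52) were also lowest in replicate 4, and Smpd1 was lowest in replicate 2 (6.90). Mcoln1 (6.01) and Lamp2 (10.55) were highest of the day 5 arrays in replicate 4. A link to the tubule markers was not tested. Of the 3 probes of Idua, 2 were lower on day 5, by -1.36 and -1.44, and the third was higher (0.42).

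Genes of lipid breakdown were mostly higher on day 5, with 5 of 6 means up and 1 down and a median log2 change of 0.83. Gm2a encodes the GM2 activator, the cofactor that lifts GM2 ganglioside to the enzyme made with the product of Hexa. Its level was 10.76, 10.65, 10.48 and 10.58 in uninjured mice and 11.62, 11.78, 11.23 and 11.45 on day 5. The groups did not overlap, and Gm2a rose 1.87-fold (log2 change 0.90 ± 0.13 SE, limma adjusted p = 0.00766). Smpd1, acid sphingomyelinase, which splits sphingomyelin into ceramide and phosphocholine, went the other way. It was at 8.02, 8.17, 7.71 and 7.83 in uninjured mice and at 7.13, 6.90, 7.23 and 7.05 on day 5. Every day 5 array was below every uninjured one, and Smpd1 fell 1.80-fold (log2 change -0.85 ± 0.13 SE, limma adjusted p = 0.00784). Both calls were lost on leaving out any array except day 5 FSGS replicate 3 (adjusted p at most 0.0290 for Gm2a and 0.0295 for Smpd1), and without that array they were 0.00142 and 0.00353. The call of Smpd1 was also lost with its brightest probe alone (-0.83, adjusted p = 0.0199), median scaling (-0.65, 0.0336), an intensity trend (0.0125) and the methods' Bayesian test (0.0334), and that of Gm2a with scaling to the 75th percentile (0.76, adjusted p = 0.0184), and in the authors' processed table the change of Smpd1 was -0.50.

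The other lipid genes were not called. Npc2, which hands cholesterol to the membrane protein NPC1, was at 11.72 to 11.78 in uninjured mice and at 12.70, 12.98, 12.13 and 12.73 on day 5 (0.88 ± 0.17 SE, adjusted p = 0.0168). Psap, the precursor of the 4 saposins that help sphingolipid hydrolases, was at 12.24 to 12.63 and then at 13.30, 13.55, 12.85 and 13.15 (0.78 ± 0.17 SE, adjusted p = 0.0213). Neither gene overlapped between the groups. Asah1, acid ceramidase, which acts on the ceramide that Smpd1 makes, differed by 0.94 (adjusted p = 0.105), with replicates from 7.43 to 9.06 on day 5, and Ppt1, a palmitoyl-protein thioesterase, by 0.64 (adjusted p = 0.0797). Both overlapped the uninjured mice through day 5 FSGS replicate 3. Without that array, all 4 passed the threshold, with adjusted p-values from 0.000766 (Npc2) to 0.00724 (Asah1). Calls higher over all 16593 genes rose from 312 to 1195 without it, so this too is a description.

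The membrane proteins split evenly, with 4 of 8 means higher and 4 lower, 1 called in each direction, and a median log2 change of 0.02. Scarb2 encodes LIMP-2, the receptor that carries glucocerebrosidase to the lysosome. Its level was 7.88, 7.55, 8.00 and 7.97 in uninjured mice and 9.61, 10.07, 8.84 and 10.19 on day 5. The groups did not overlap, and Scarb2 rose 3.55-fold (log2 change 1.83 ± 0.28 SE, limma adjusted p = 0.00847). Cd63 encodes a tetraspanin of late endosomes, lysosomes and exosomes. Its level was 10.92, 10.82, 10.75 and 10.45 in uninjured mice and 9.89, 9.71, 9.86 and 9.52 on day 5. The groups were apart, and Cd63 fell 1.99-fold (log2 change -0.995 ± 0.13 SE, limma adjusted p = 0.00630), with all 3 of its probes lower, by -0.76 to -1.38. Here day 5 FSGS replicate 3 lay within the range of the other day 5 arrays. The 2 calls were lost on leaving out any array other than day 5 FSGS replicate 3 (adjusted p at most 0.0323 for Scarb2 and 0.0275 for Cd63), and without that array they were 0.000406 and 0.00271. The call of Cd63 was also lost with its brightest probe (-0.85, adjusted p = 0.01003) and that of Scarb2 with an offset of 50 (1.69, adjusted p = 0.0130).

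**Figure D2:**
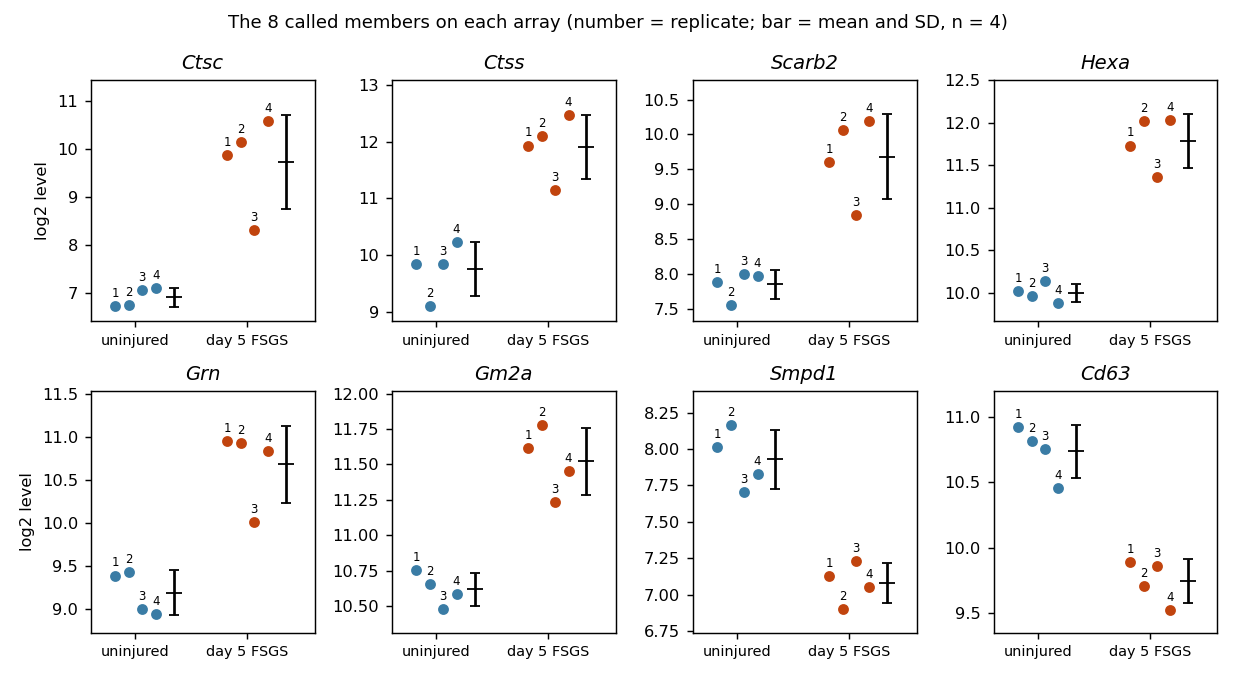
Log2 level (vertical axis, its range set for each gene) of the 8 called genes on each array, numbered by replicate, with the mean and SD of each group of 4. No gene overlaps between the groups; day 5 FSGS replicate 3 is the lowest of its group in all 6 genes called higher, for example 8.32 against 9.86 to 10.58 for Ctsc.

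Among the other membrane proteins, Laptm5, known from blood cells, was at 11.37, 10.79, 11.65 and 11.77 in uninjured mice and at 12.98, 13.19, 12.38 and 13.55 on day 5 (1.63 ± 0.29 SE, adjusted p = 0.0128). Its groups did not overlap. Without day 5 FSGS replicate 3, its lowest day 5 array, it passed the threshold (adjusted p = 0.00231), as did 1195 of all 16593 genes with a higher mean. Mcoln1, the calcium channel TRPML1, was at 6.25, 6.99, 6.60 and 6.57 in uninjured mice and at 5.76, 5.77, 5.77 and 6.01 on day 5 (-0.78 ± 0.16 SE, adjusted p = 0.0183). It too was apart between the groups, though it was detected on 3 of 4 arrays in each, and its change was -0.25 in the authors' processed table and -0.28 without background correction. Cln3, a membrane protein mutated in a form of Batten disease, differed by 0.71 (adjusted p = 0.125).

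Lamp1 and Lamp2, the most abundant proteins of the lysosomal membrane, showed no shift of the size seen in Scarb2. Lamp1 was at 11.35, 11.69, 11.18 and 11.25 in uninjured mice and at 11.45, 11.59, 11.39 and 11.51 on day 5. The groups overlapped, and the difference was 0.12 with a 95% interval from -0.17 to 0.41 (adjusted p = 0.587). Lamp2 was at 10.80, 10.88, 10.72 and 10.67 and then at 10.49, 10.48, 10.43 and 10.55. These groups did not overlap, by a small margin (-0.28 ± 0.09 SE, adjusted p = 0.0675).

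The average of Lamp2 hides a difference between its 4 probes, which was singled out after their values were seen and is given as a description. The platform's table assigns 2 of the probes to 1 RefSeq transcript of Lamp2 and the other 2 to another. The mean of the first pair was 11.66, 11.65, 11.57 and 11.54 in uninjured mice and 11.58, 11.60, 11.53 and 11.84 on day 5, a difference of 0.03. The mean of the second pair was 9.94, 10.11, 9.86 and 9.80 in uninjured mice and 9.41, 9.37, 9.32 and 9.26 on day 5, a difference of -0.59. The groups overlapped in the first pair and were apart in the second, in which 1 probe differed by -0.89 and the other by -0.28. The second pair minus the first was -1.75 to -1.54 in uninjured mice and -2.58 to -2.17 on day 5. LAMP2 is made in splice forms that differ in their membrane-spanning end, but which form each pair reads was not determined here.

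Grn and Tfeb were taken apart from the enzymes. Grn encodes progranulin, a secreted growth factor that is also delivered to the lysosome and cut there into granulins. It was at 9.39, 9.43, 8.999 and 8.94 in uninjured mice and at 10.95, 10.92, 10.01 and 10.84 on day 5. The groups did not overlap, and Grn rose 2.81-fold (log2 change 1.49 ± 0.23 SE, limma adjusted p = 0.00875). This call was lost on leaving out any array other than day 5 FSGS replicate 3 (adjusted p at most 0.0343), and without that array the adjusted p was 0.000479. Tfeb, the regulator of lysosomal genes, was close to background, with no uninjured array and 1 of 4 day 5 arrays above it. Its level was 5.94, 5.54, 5.12 and 5.32 in uninjured mice and 5.45, 5.34, 5.00 and 5.65 on day 5. The groups overlapped, the measured levels differed by -0.12 ± 0.20 SE (adjusted p = 0.744), which is no fold, and a change of Tfeb could not be read at this signal.

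The remaining 10 detected genes, Ctsf, Ctsl, Lgmn, Gaa, Glb1, Ids, Naglu, Sgsh, Manba and Ctns, all overlapped between the groups. Their log2 changes ran from -0.30 to 0.44, and their lowest adjusted p was 0.197. The 95% intervals of these genes reached from -0.97 to 0.92 at their extremes, so that for some of them a change of close to 2-fold lies within the interval. They include acid α-glucosidase (Gaa), which breaks down glycogen, β-galactosidase (Glb1), the heparan sulfate enzymes Naglu, Sgsh and Ids, and the cystine transporter Ctns. Ctsk, Gla and Fuca1 were not detected on any array.

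**Figure D3:**
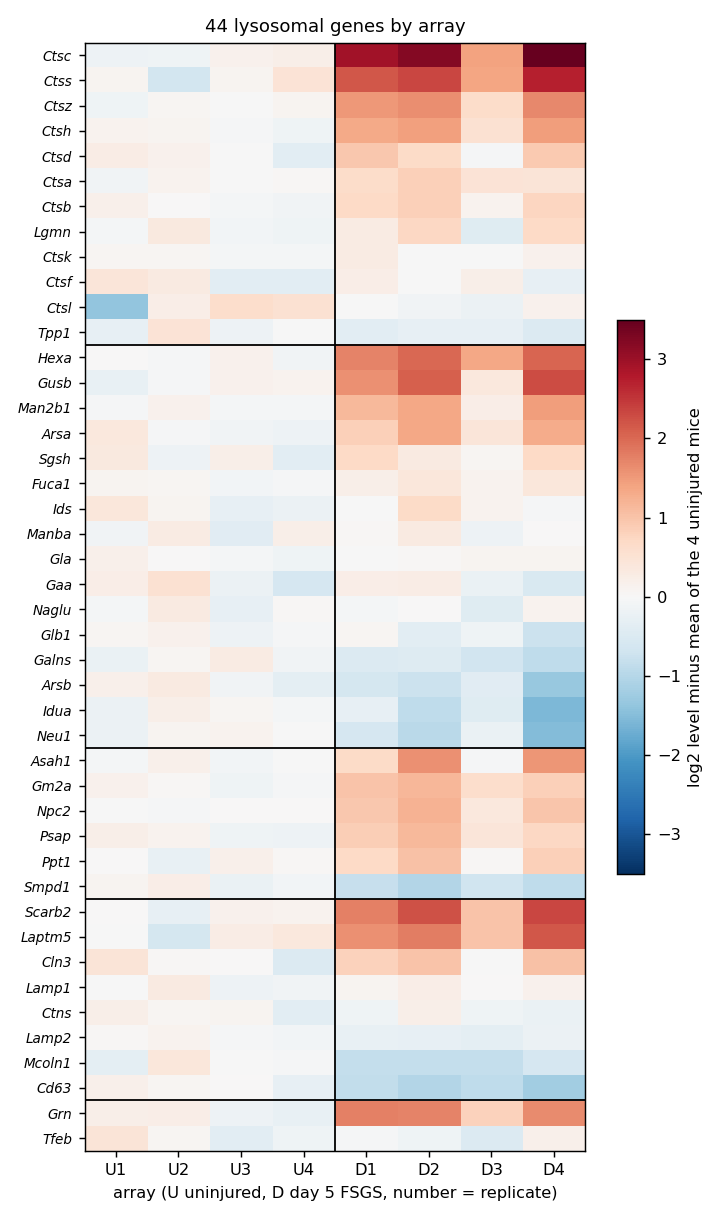
Log2 level of the 44 lysosomal genes (rows, grouped by role with lines between the groups) on each array (columns, U uninjured and D day 5 FSGS with the replicate number), as the difference from the mean of the 4 uninjured mice. Red is higher and blue lower; the column of day 5 FSGS replicate 3 is paler than the other day 5 columns in most of the genes that were higher on day 5, and it is the lowest of its group in 28 of 44 genes.

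The mice of day 5 differed among themselves. Day 5 FSGS replicate 3 had the lowest level of its group in 28 of 44 genes and in 6 of 6 genes called higher. Its mean over the 12 peptidases was 8.38, against 8.96, 9.01 and 9.06 in replicates 1, 2 and 4 and 7.98 to 8.16 in uninjured mice. The glycosidases were at 7.99 in replicate 3 and 8.26, 8.32 and 8.10 in replicates 1, 2 and 4, and the lipid genes at 10.01 and then 10.46, 10.75 and 10.57, so that replicate 3 was lowest in each group while the order of the other mice varied. The membrane proteins were at 8.98 in replicate 3 and 9.27, 9.42 and 9.43 in replicates 1, 2 and 4. The macrophage markers ran in the same order as the peptidases and the membrane proteins. Their mean level was 8.29 in replicate 3 and 9.48, 9.76 and 9.90 in replicates 1, 2 and 4. The proximal tubule markers ran the other way, at 9.56 in replicate 3 and 9.12, 8.71 and 7.58 in replicates 1, 2 and 4. All 17 of them had a lower mean on day 5, 2 were called lower and 0 higher, and the strongest was Slc22a12, a urate transporter (-2.50). Of 11 lymphocyte markers 1 was called, the T cell receptor chain Cd3g, which was detected on no uninjured array and was at least 1.53-fold higher on day 5. The mean of 9 endothelial markers, of which 0 were called, was 8.12 in day 5 FSGS replicate 3, against 6.49 to 7.08 in the other day 5 arrays and 6.09 to 7.10 in uninjured mice. The part of these cells in the levels of the lysosomal genes was not tested.

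**Figure D4:**
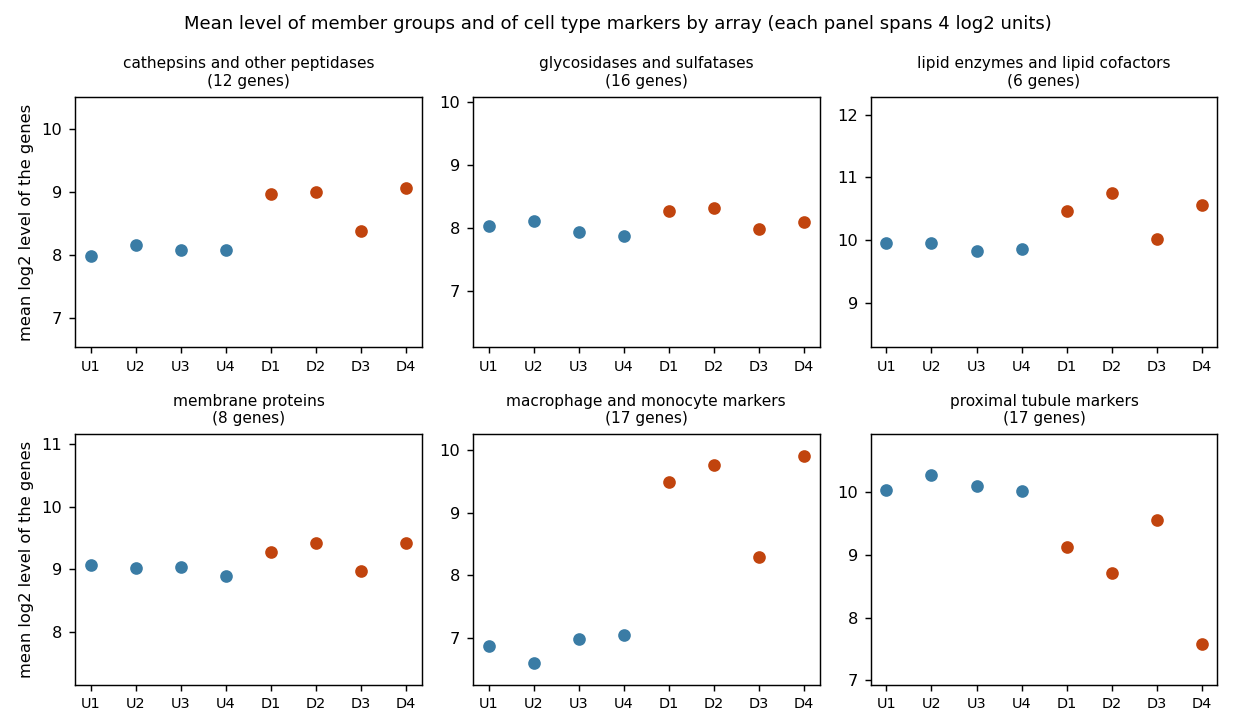
Mean log2 level (vertical axis, 4 log2 units in each panel) on each array (U uninjured, D day 5 FSGS, with the replicate number) of the genes of 4 role groups and of macrophage and proximal tubule markers. The peptidases and the macrophage markers are lowest of the day 5 arrays in replicate 3 (8.38 and 8.29), where the proximal tubule markers are highest (9.56).

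Lysosomal genes outside the 44 were counted in the same fit. Of 23 further hydrolases, 2 were called higher and 0 lower, with a median log2 change of 0.13. They were Pla2g15, the lysosomal phospholipase A2, which was 3.21 higher on the log2 scale (adjusted p = 0.00706), and Plbd1, a phospholipase B-like protein (2.34, adjusted p = 0.00616). Of 26 further membrane proteins 1 was called higher and 0 lower (median 0.17). This was Slc15a3, a peptide and histidine transporter, which was not detected on any uninjured array and was at least 1.97-fold higher on day 5. None of 19 genes of enzyme delivery and of TFEB-related control was called by limma. Of the 19, 10 with a positive and 2 with a negative change had an unadjusted limma p under 0.05. Over all 16593 genes, 2482 with a positive and 2573 with a negative change did. The lowest p among the 19 was that of Nagpa, the enzyme that uncovers the mannose 6-phosphate tag, which was detected on 0 of 4 uninjured and 4 of 4 day 5 arrays and was at least 1.34-fold higher (adjusted p = 0.0104). Of 10 cystatins, the inhibitors of cysteine cathepsins, Cst3 was called, with a log2 change of 1.06 ± 0.15 SE (adjusted p = 0.00668).

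The promoter letters shown above were then set beside the changes. A RefSeq promoter, from 250 bases before to 50 bases after the start site, was found for 40 of the 45 listed genes, with 47 promoters in all. Letters were searched on both strands, and the longer forms contain the shorter ones. The E-box CACGTG was in 29.8% of these promoters, beside 7.15% of all 32851 promoters, and TCACGTGA was in 10.6%, beside 0.974%. The PU box core GAGGAA was in 38.3%, beside 28.3%, and GAGGAAGT in 8.51%, beside 3.20%.

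The 14 members with an E-box, which include Lamp1 with 4 copies and Ctsa with 2, had a median log2 change of 0.08, and 0 of them were called in either direction. The 26 without one had a median of 0.46 and held all 6 genes called higher and both called lower. The day 5 arrays lay wholly above the uninjured ones for 2 of the 14 (Ctsa and Arsa) and for 13 of the 26. They lay wholly below for 1 of the 14 and for 7 of the 26. Over all genes the shares were 10.4% above and 9.60% below. For the longer TCACGTGA the medians lay the other way, at 0.60 for the 5 members with it and 0.19 for the 35 without. Of these 5, Cln3, Ctsa, Ctsd and Gla had a higher mean on day 5 and Mcoln1 a lower one. None of the 5 was called, and Gla was not detected. Members with the PU box core numbered 18, with a median of 0.75, 4 called higher (Ctsc, Ctss, Grn and Gm2a) and 2 called lower (Smpd1 and Cd63). The 22 without it had a median of 0.07, with 2 called higher (Hexa and Scarb2) and 0 lower. On day 5, 9 of the 18 lay wholly above the uninjured arrays and 3 wholly below, and of the 22, 6 and 5 did. The longer GAGGAAGT was found in 4 members, Ctsc, Ctss, Gusb and Gla, of which Gla was not detected. These splits are descriptions of the letters in 300-base windows and were not tested.

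**Figure D5:**
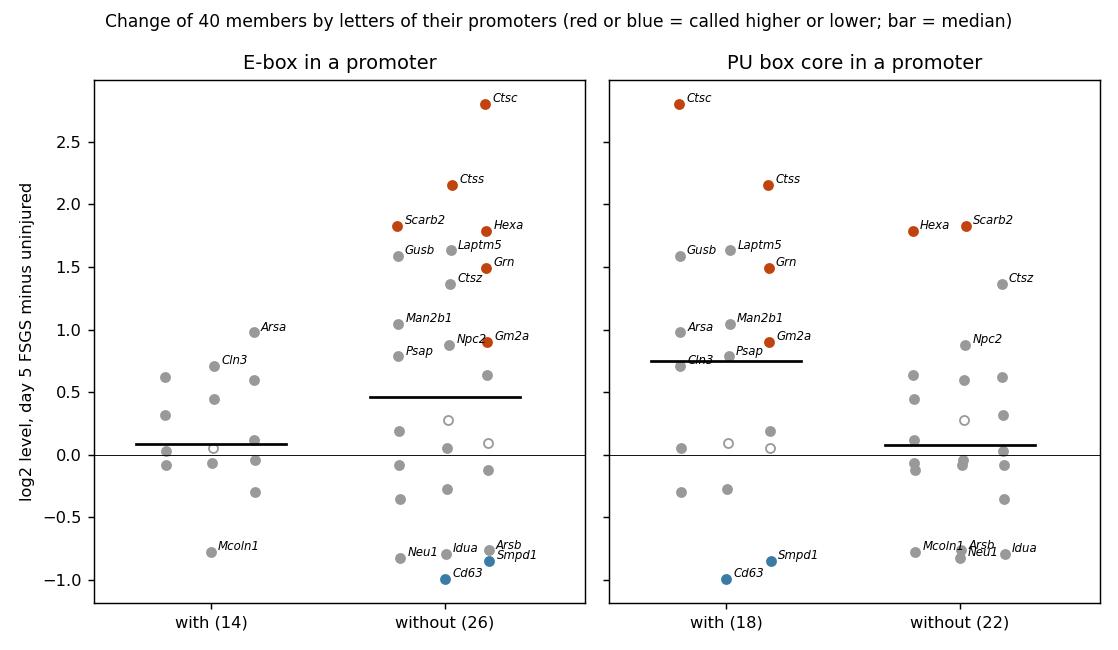
Log2 change from uninjured to day 5 FSGS (vertical axis) of the 40 members with a RefSeq promoter, divided by whether a promoter holds the E-box CACGTG (left) or the PU box core GAGGAA (right). Each point is a gene, red where called higher, blue where called lower, grey where not called and open where not detected; the bars are medians, 0.08 and 0.46 for the E-box and 0.75 and 0.07 for the PU box core.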

How the data were processed

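RNA of ZsGreen-sorted CoRL from 4 uninjured and 4 day 5 FSGS mice was hybridized to Illumina arrays. The authors deposited a table of probe intensity on a linear scale, not normalized, with a detection p-value for each of 25697 probes, and its software is not stated in the sources used here. The authors also deposited a processed signal on a linear scale, made with lumi by variance stabilization and quantile normalization (version not stated), which ranked the probes as the intensities did and served as an alternative. Gene symbols came from the platform's annotation: 1 symbol stands beside 23978 probes, 0 carry more than 1 and 1719 carry no name here.

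Log2 levels were computed from the deposited intensities by neqc of limma 3.58.1 under R 4.3.3 (normexp background from the detection p-values, offset 16, quantile normalization, log2). Probes of a gene were averaged, and lmFit and eBayes compared the groups with p-values adjusted by Benjamini-Hochberg over 16593 genes. Background left in the signal compresses the fold of dim genes, so that fold depends on the correction. The change was 1.59 for Gusb and -0.78 for Mcoln1 with the correction used, and 0.90 and -0.28 without background correction. A gene detected on no array of 1 group and higher in the other was given a lower bound of its fold, against the lowest detected signal. For Tfeb, near background in both groups, only the difference of the measured levels is given.

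The members, the lists and the markers were chosen with earlier results of these data known. Genes named are the called members, the strongest member of a role with none called, the most negative member of each role, Tfeb, up to 3 called genes of each other list or the one with the lowest p, and further members described with values chosen after they were seen. Same-numbered arrays come from different mice and were not paired in the reported fit. Their deviations from the group means, after quantile normalization, correlated at -0.09 to 0.11. Before normalization the median intensity fell with the replicate number in both groups, from 234.5 to 167.2 (uninjured) and from 200.5 to 157 (day 5 FSGS). Whether same-numbered arrays were processed together was not tested. The values of no array were those of another. The p-values measure the spread among these 8 arrays, whose number limits the precision. The fit was tested on simulated data with independent normal errors and the same SD in both groups. This checks the code and not the calls reported here. Alternatives were other background corrections and scalings, the processed table, detected probes only, the brightest or each probe alone, an intensity trend, array weights, an unequal-variance test and the methods' Bayesian test, a replicate block, a looser threshold, and each array left out. Figures were drawn with matplotlib 3.10.9.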

Additional observations from a re-analysis of the deposited data

Results flagged for a closer look

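Among 62 groups of 4 arrays examined (31 members in each group), 6 held an array whose gap to its nearest neighbour, as a share of the range of the group, was above the 95% limit of Dixon's test, and chance flags about 1 in 20 groups. In 4 of them day 5 FSGS replicate 3 was far below the other 3 day 5 arrays: Grn (0.881, at 10.01 against 10.84 to 10.95), Ctsh (0.853, at 10.02 against 10.81 to 10.95), Ctsz (0.844, at 9.69 against 10.57 to 10.73) and Ctsb (0.832, at 11.42 against 12.02 to 12.14). For Mcoln1, day 5 FSGS replicate 4 was above the others (0.960, at 6.01 against 5.76 to 5.77), near background. For Man2b1, uninjured replicate 2 was above the others (0.854, at 9.23 against 9.01 to 9.04). The causes were not tested.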

How the results depend on the processing

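Under every alternative that kept all 8 called members in the fit, each of the 8 kept its direction. The count called higher, 6, was 2 with an offset of 50, 11 with detected probes only, 10 with an intensity trend, 16 with array weights, 12 with the methods' Bayesian test, 16 with the threshold at 0.05, and 16 with uninjured replicate 1 and day 5 FSGS replicate 3 both left out. Counts over all genes moved too, from 312 higher to 157 with the offset, 788 of 6964 with detected probes, 554 with the trend, 966 with array weights, 732 with the Bayesian test, 1419 at 0.05, 1195 without day 5 FSGS replicate 3 and 1054 with both arrays left out. Members that gained a call were Ctsz, Ctsh and Laptm5 without background correction, Ctsz, Ctsh and Arsa with median scaling, Ctsz, Ctsh, Laptm5 and Mcoln1 (lower) with 75th percentile scaling, Ctsz in the processed table and with the brightest probe, Ctsz, Ctsh, Npc2 and Laptm5 with the trend, and these 4, Gusb and Man2b1 with the Bayesian test. In the processed table the change was over 1.5 times smaller for Gusb (0.88), Arsa (0.59), Asah1 (0.61), Cln3 (0.40), Idua (-0.41), Arsb (-0.45) and Tpp1 (-0.23), as well as for Ctsc, Smpd1, Ctsa, Mcoln1 and Tfeb (-0.04). The count called lower, 2, was 1 with median scaling, the intensity trend or the Bayesian test, 0 with the brightest probe, and 4 at the looser threshold. Over all genes the count called lower moved from 63 to 38 with median scaling, 106 with the trend and 325 with the Bayesian test. It was 73 with the brightest probe and 962 at 0.05. Leaving out single arrays gave 0 to 18 higher and 0 to 2 lower, the maxima without day 5 FSGS replicate 3. With any other single array left out, calls over all genes fell from 312 higher to 0 to 35, and from 63 lower to 0 to 3. The unequal-variance test called 0 higher and 0 lower, and the replicate block called 0 and 0. Both also called 0 higher and 0 lower over all 16593 genes, so these zeros are not particular to the members. Median and 75th percentile scaling put the median of all genes at -0.18 and -0.52, in place of -0.03, and the share of higher among all calls was 83.2% in the reported fit, 94.98% and 56.5% with these scalings, 73.6% without background correction, 72.7% in the processed table, 67.1% with array weights and 69.3% with the Bayesian test. Signs turned for Lamp1 (-0.082, 75th percentile scaling), Lamp2 (0.011 with its brightest probe, 0.055 with another), Idua (0.42) and Ctsa (-0.024) with 1 probe each, and Tfeb (0.44 with 1 probe, 0.033 with array weights, 0.16 with both arrays left out, -0.24 to 0.035 with single arrays left out). Of 681 values of single members under the alternatives, 524 kept the call and direction, 64 gained and 83 lost the call, and 10 turned; the causes were not tested. Dim genes limit the depth: Tfeb, Ctsk, Gla and Fuca1 were at background.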
